A study of Mus musculus with 7 samples.

Results

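The genes described here are 32 of the 42687 gene rows in the deposited table: the enzymes that turn glucose into lactate, the carriers of glucose and lactate, and a set of transcripts that low oxygen induces. They were chosen by name, with earlier results of these data known, and each of the 32 symbols matched 1 Ensembl identifier. Transcripts were measured in cells positive for CD24 and CD29 that were sorted by flow cytometry from digested femurs of C57BL/6 mice, a population that the labels call skeletal stem cells of bone. Mice aged 3 months at the start ate food with 10% fat (low fat diet, LFD, 4 libraries numbered 1 to 4) or 60% fat (high fat diet, HFD, 3 libraries numbered 2 to 4) over 4 weeks. The comparison asks which of these transcripts differed between the diets. The labels do not say whether a library came from 1 animal or from a pool, so p-values measure the spread between these libraries, which may be technical in part.

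Glucose enters a cell through carriers of the Slc2a family, is trapped by hexokinase as glucose 6-phosphate, and is split and oxidized to pyruvate, which lactate dehydrogenase can reduce to lactate for export through Slc16a carriers. When oxygen is scarce the transcription factor HIF-1, whose regulated subunit is the product of Hif1a, binds short DNA elements near many of these genes and raises their transcription. Cartilage and parts of the bone marrow are poor in oxygen, and chondrocytes and osteoblasts are known to make much of their ATP by glycolysis. Red cells and neutrophils, which are abundant in marrow, also depend on glycolysis.

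Promoter windows are shown for 6 members, to let the letters of the HIF element be seen beside the values below. Hk3, Pfkfb4, Gpi1 and Slc16a3 are shown from the members whose groups did not overlap, Slc16a1 because its mean was lower in HFD, and Ldha as a textbook HIF target. Each window runs from 250 bases before to 50 bases after the annotated start, 5′ to 3′, from RefSeq on GRCm38.p6. Capitals mark the core of the HIF element, ACGTG or GCGTG on either strand, where the palindrome CACGTG counts on both strands and is also the E-box bound by other factors. The windows lie at chr7:46845554-46845853 (+) for Ldha, chr3:104638414-104638713 (+) for Slc16a1, chr11:120948817-120949116 (+) for Slc16a3, chr9:108991652-108991951 (+) for Pfkfb4, chr13:55021336-55021635 (-) for Hk3 and chr7:34230287-34230586 (-) for Gpi1.
Ldha: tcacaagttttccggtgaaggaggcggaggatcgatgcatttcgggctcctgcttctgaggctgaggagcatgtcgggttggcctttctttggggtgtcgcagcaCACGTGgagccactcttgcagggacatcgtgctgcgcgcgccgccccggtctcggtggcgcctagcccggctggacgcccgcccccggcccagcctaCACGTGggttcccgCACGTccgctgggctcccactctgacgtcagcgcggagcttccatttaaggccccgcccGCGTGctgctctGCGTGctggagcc
Slc16a1: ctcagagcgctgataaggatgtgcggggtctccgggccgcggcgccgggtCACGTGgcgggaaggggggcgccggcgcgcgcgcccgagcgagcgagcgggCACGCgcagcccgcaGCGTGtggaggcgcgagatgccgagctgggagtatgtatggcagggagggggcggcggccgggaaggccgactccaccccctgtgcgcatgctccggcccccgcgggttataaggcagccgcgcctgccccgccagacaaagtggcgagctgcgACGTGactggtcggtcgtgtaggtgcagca
Slc16a3: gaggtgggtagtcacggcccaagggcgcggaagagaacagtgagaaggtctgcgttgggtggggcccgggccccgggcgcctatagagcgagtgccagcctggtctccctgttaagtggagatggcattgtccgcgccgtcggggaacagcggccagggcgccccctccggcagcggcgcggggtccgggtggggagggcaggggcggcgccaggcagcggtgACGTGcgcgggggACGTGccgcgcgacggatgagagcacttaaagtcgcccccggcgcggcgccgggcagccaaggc
Pfkfb4: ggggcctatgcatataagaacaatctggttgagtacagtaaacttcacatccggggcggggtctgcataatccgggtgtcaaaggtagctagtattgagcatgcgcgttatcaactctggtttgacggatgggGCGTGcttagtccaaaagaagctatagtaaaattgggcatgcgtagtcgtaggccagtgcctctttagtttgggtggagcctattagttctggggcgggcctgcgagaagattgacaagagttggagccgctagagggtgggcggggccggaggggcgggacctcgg
Hk3: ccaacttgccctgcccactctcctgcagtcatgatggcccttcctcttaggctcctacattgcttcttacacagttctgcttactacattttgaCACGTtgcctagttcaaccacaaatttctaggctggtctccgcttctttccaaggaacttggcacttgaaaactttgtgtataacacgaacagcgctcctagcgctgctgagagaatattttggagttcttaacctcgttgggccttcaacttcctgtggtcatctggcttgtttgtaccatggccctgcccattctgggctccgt
Gpi1: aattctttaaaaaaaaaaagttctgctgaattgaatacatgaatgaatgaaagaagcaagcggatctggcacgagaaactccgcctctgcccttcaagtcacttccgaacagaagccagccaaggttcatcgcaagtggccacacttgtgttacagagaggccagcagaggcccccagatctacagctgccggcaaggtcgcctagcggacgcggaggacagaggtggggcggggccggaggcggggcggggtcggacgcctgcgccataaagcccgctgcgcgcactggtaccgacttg

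The Ldha window held 7 such cores, the most of any member window, Slc16a1 held 5, Slc16a3 held 2, Pfkfb4 and Hk3 held 1 each, and Gpi1 held 0. Pgam1, whose groups also did not overlap, held 3 and is not printed here. RefSeq windows matched 29 of the 32 members, and Slc2a3, Slc2a4 and Ndrg1 had no match. The core occurred in 34 of 43 member windows (79.1%) and in 43.8% of all 32851 windows. Windows of the same gene can overlap, as for Aldoa, Eno1 and Pfkm, so the same core can count more than once. By member, 26 of 29 (89.7%) held a core, and no share by gene was computed for the other genes. The base composition of the windows was not matched, and a match describes the letters and shows no binding. The 3 matched members with no core in any window were Gpi1, Tpi1 and Eno2.

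Libraries held 17391613 to 24681838 counts. Values are CPM, counts per 1000000 of the TMM-scaled library total. Where libraries are not named one by one, the value is the mean ± SD over 4 LFD or 3 HFD libraries, and fold changes are HFD against LFD on the log2 scale. Sex-linked transcripts divided the libraries exactly as diet did: the LFD libraries held 257 to 526 counts of Xist and the HFD libraries 0, and 4 Y-linked genes together had 1 to 5 and 2494 to 3405 counts. The labels give no sex, and diet and sex cannot be told apart in any comparison below. Blood cell transcripts were present in all libraries. The erythroid marker list (14 of 15 genes found in the table) made up 10.4% to 14.8% of counts in LFD and 2.69% to 10.8% in HFD, and the granulocyte list (15 of 15) 0.102% to 0.543% and 1.04% to 1.64%, with none of the markers of either list at 0 in all libraries. The monocyte list (11 of 11) made up 0.0161% to 0.0800% and 0.190% to 0.206%, and the stromal progenitor list (10 of 10) 0.0303% to 0.0951% and 0.180% to 0.353%. In HFD the largest gene of the monocyte list was Lyz2 (116 to 704 CPM in LFD, 1462 to 1919 CPM in HFD). Cxcl12 was that of the stromal list (8.51 to 207 and 1118 to 1986 CPM). Lepr, Pdgfrb, Kitl and Grem1 were also apart between the diets, and Pdgfra, Prrx1, Ly6a, Thy1 and Nt5e overlapped. Of the monocyte list Adgre1, Mrc1, C1qa and C1qb overlapped. Chondrocyte markers made up 2.58% to 4.675% of counts in LFD and 3.59% to 7.24% in HFD. Osteoblast markers made up 1.38% to 2.60% and 2.53% to 4.12%, so skeletal transcripts were present in all libraries. Both pairs of ranges overlapped, with higher values in HFD for 10 of 11 chondrocyte and 9 of 10 osteoblast genes. Of the sorting markers, Itgb1 (CD29) measured 368 to 497 CPM over all libraries and Cd24a 774 to 4852 CPM, lowest in HFD 2 and highest in LFD 3, the libraries with the smallest and the largest erythroid share. The part of these lists in the results below was tested only where a share is named as a covariate. By an exact two-sided permutation test over 35 assignments, whose smallest p is 0.0286, none of the 11 marker lists passed after adjustment (adjusted p = 0.105 for the erythroid, granulocyte, monocyte and stromal lists). The stromal and skeletal muscle lists stood at that smallest p. A list there cannot pass unless many others stand there too, so this result says little about any list.

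All 32 members had enough counts to be tested. None passed edgeR's quasi-likelihood test after Benjamini-Hochberg adjustment over all 14304 genes tested, of which 5 passed (0.035%), 4 of them upward (0.028%). An unadjusted p under 0.05 was reached by 7 members, all of them higher in HFD, or 21.9% of members, where 7.53% of all genes reached it in either direction with 5.18% upward and 2.35% downward. These were Slc2a3, Hk3, Pfkfb4, Gpi1, Slc16a3, Pgk1 and Pgam1. DESeq2 called 4 of them (Slc2a3, Hk3, Pfkfb4 and Gpi1) beside 2.09% of all genes (1.66% upward), and limma-voom called 1 (Slc2a3) beside 0.182%. Values were higher in HFD for 25 members and lower for 7, where 51.5% of all genes were higher, and the median log2 fold change was 0.42, against 0.02 over all genes tested. The groups did not overlap for 6 members, all higher in HFD (18.8%). Over all genes 8.4% were apart upward, 3.47% downward and 11.9% in either direction. The direction counts moved with the model: with 1 surrogate variable in the model 15 of 32 were higher with a median of -0.02. Once the erythroid share was a covariate 21 of 32 were higher with a median of 0.10.

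**Figure D1:**
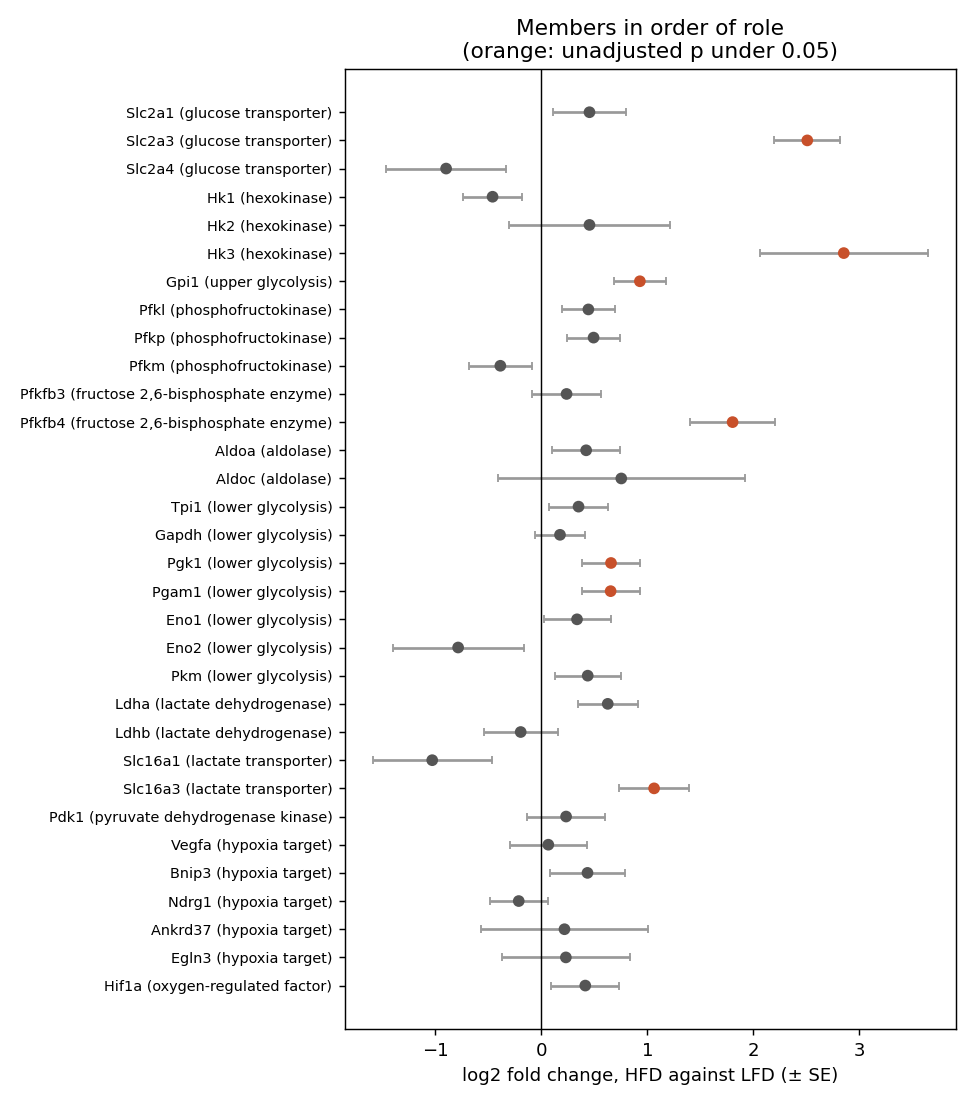
Log2 fold change of each of the 32 members, HFD against LFD, from edgeR with its SE as the bar, in order of role from glucose entry (top) to the hypoxia genes (bottom). Slc2a3 and Hk3 lie farthest to the right at 2.51 and 2.85, most enzymes lie between 0 and 1, and Slc16a1 and Slc2a4 lie farthest to the left at -1.03 and -0.90.

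Among the glucose carriers, Slc2a3 separated the diets and Slc2a1 and Slc2a4 did not. Slc2a3 encodes GLUT3, a carrier of high affinity known from neurons and white blood cells (ENSMUSG00000003153, mm10 chromosome 6, 122727809 to 122801640, minus strand). Its level was 8.74, 12.5, 17.4 and 18.7 CPM in LFD 1 to 4 and 73.8, 104 and 66.8 CPM in HFD 2 to 4. Every HFD library thus lay far above the highest LFD library. The log2 fold change was 2.51 ± 0.31 (SE), a 5.7-fold difference, with an adjusted p of 0.083 by edgeR's quasi-likelihood test and 2.2e-09 by DESeq2. It lay between 2.31 and 2.66 when each library was left out in turn (edgeR adjusted p from 0.0726 to 0.419).

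Slc2a1 encodes GLUT1, the carrier found in most cells. It measured 99.4, 50.9, 41.6 and 86.2 CPM in LFD 1 to 4 and 123, 88.4 and 74.7 CPM in HFD 2 to 4. The groups overlapped, with LFD 1 and LFD 4 inside the HFD range (log2 fold change 0.45 ± 0.34, edgeR adjusted p = 0.740). Slc2a4 encodes GLUT4, the carrier that insulin moves to the surface of fat and muscle cells. It measured 33.0, 59.9, 67.5 and 41.2 CPM in LFD and 7.34, 25.6 and 48.2 CPM in HFD. HFD 2 was the lowest library and HFD 4 lay within the LFD range (-0.90 ± 0.57, adjusted p = 0.707). The skeletal muscle list, whose cells express Slc2a4, held 0.00481% to 0.00571% of counts in LFD and 0.00289% to 0.00357% in HFD. These ranges were apart in the same direction as the Slc2a4 means (exact permutation p = 0.0286, adjusted p = 0.105). Of 6 genes of the list tested, 2 were higher and 4 lower in HFD, and Myh4 was at 0 in all libraries. Within LFD the share of the list was smallest in LFD 3, where Slc2a4 was highest. The part of this list in the Slc2a4 values was not tested.

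Per kilobase of merged exons, the mean in LFD was 19.8 ± 7.89 CPM per kb for Slc2a1, 14.5 ± 4.61 for Slc2a4 and 1.98 ± 0.634 for Slc2a3. Slc2a4 was above Slc2a1 in LFD 2 and LFD 3, so the order of this pair differed between libraries. In HFD Slc2a3 (11.3 ± 2.75) stood above Slc2a4 (7.77 ± 5.89), though these spreads overlap. Slc2a3 made up 3.09% to 7.14% of the summed level of the 3 carriers in LFD and 20.8% to 30.6% in HFD. Slc2a4 made up 24.3% to 57.6% and 4.47% to 31.2%. By the longest coding transcript Slc2a3 made up 4.82% to 10.0% and 28.6% to 41.4%. The share of Slc2a3 did not overlap between the diets, and those of Slc2a1 and Slc2a4 did.

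Among the hexokinases, Hk3 separated the diets and Hk1 and Hk2 did not. Hk1 is the hexokinase of most tissues and of red cells, Hk2 is the form that insulin and HIF-1 induce, and Hk3 is found mainly in white blood cells. Hk3 (chromosome 13, 55005985 to 55021385, minus strand) measured 1.72, 12.7, 2.99 and 21.9 CPM in LFD 1 to 4 and 68.8, 52.4 and 91.6 CPM in HFD 2 to 4. The LFD libraries spread widely, yet every HFD library was above LFD 4. The log2 fold change was 2.85 ± 0.79, with an edgeR adjusted p of 0.369 and a DESeq2 adjusted p of 0.0122.

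Hk1 measured 265, 377, 441 and 352 CPM in LFD and 183, 306 and 293 CPM in HFD, with overlapping groups (-0.46 ± 0.28, edgeR adjusted p = 0.700). Hk2 ranged from 1.31 to 26.5 CPM in LFD and from 13.8 to 20.6 CPM in HFD (0.45 ± 0.76). Per length, Hk3 made up 1.29% to 12.2% of hexokinase transcripts in LFD and 27.2% to 42.9% in HFD (0.792% to 7.49% and 18.0% to 31.5% by the longest coding transcript). Hk1 made up 84.7% to 98.0% and 49.2% to 68.4%, so that its share did not overlap between the diets either, and Hk2 made up 0.416% to 12.3% over all libraries.

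**Figure D2:**
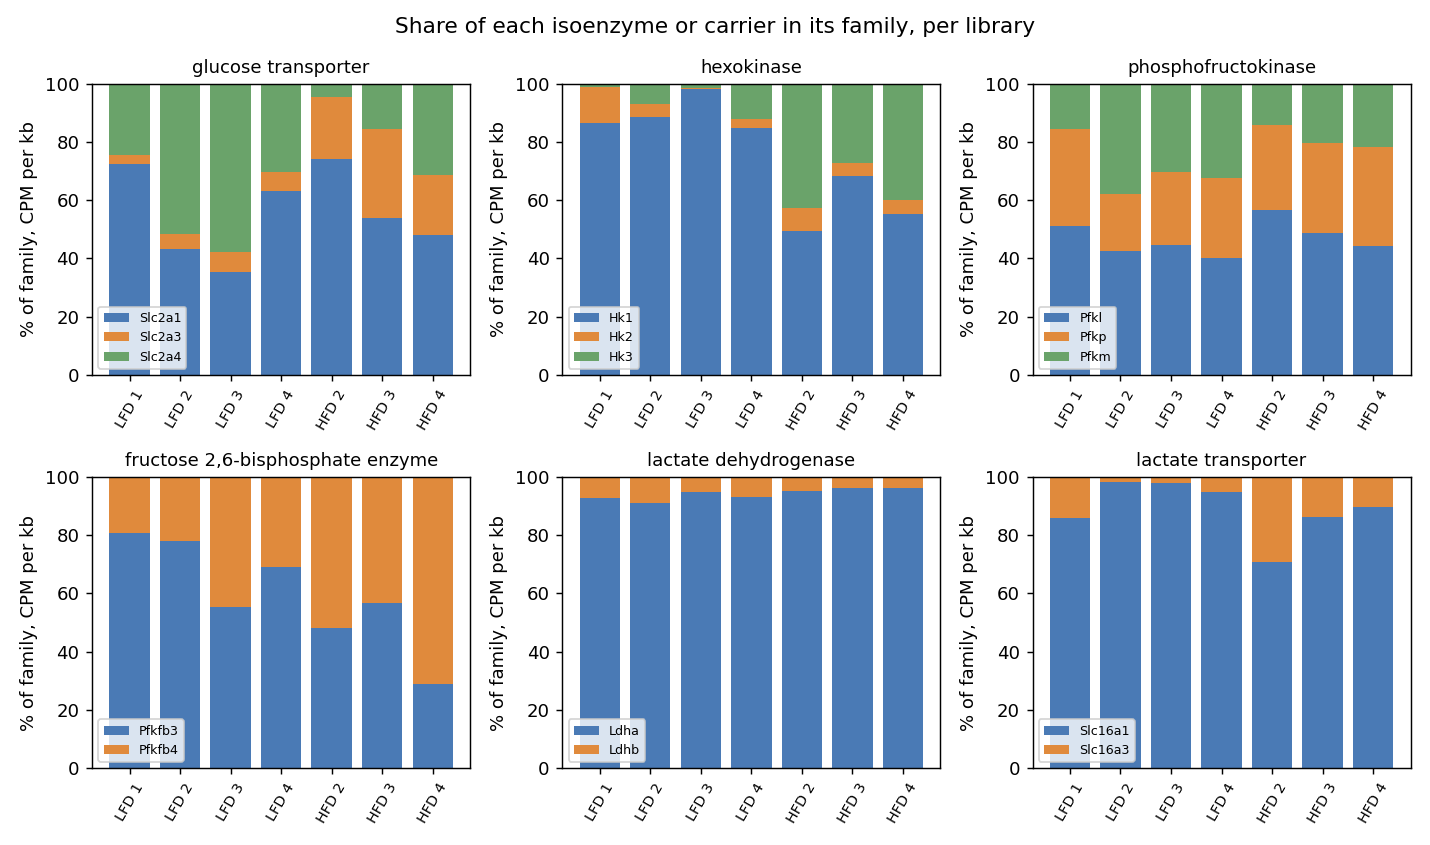
Share of each isoenzyme or carrier in the summed level of its family (CPM per kb of merged exons, percent, stacked to 100), in each of the 7 libraries. The HFD bars hold more Slc2a3 (20.8% to 30.6%, against 3.09% to 7.14% in LFD) and more Hk3 (27.2% to 42.9%, against 1.29% to 12.2%), and Ldha fills 91.0% to 96.3% of its family.

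Gpi1 encodes glucose 6-phosphate isomerase, the step between hexokinase and phosphofructokinase. It measured 111, 76.2, 63.5 and 110.0 CPM in LFD 1 to 4 and 189, 162 and 165 CPM in HFD 2 to 4. No HFD library came down to the LFD range, and the log2 fold change of 0.93 ± 0.24 had an edgeR adjusted p of 0.327 (0.0243 by DESeq2). Of the enzyme's 50-base windows 15.8% also occur in transcripts of other genes, and reads from such stretches may have been dropped or shared.

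Phosphofructokinase, the committed step of glycolysis, is built from liver (Pfkl), platelet (Pfkp) and muscle (Pfkm) subunits. Pfkl measured 144, 113, 95.1 and 111 CPM in LFD and 209, 145 and 119 CPM in HFD (0.44 ± 0.25, edgeR adjusted p = 0.693). Only HFD 2 stood clear of the other libraries. Pfkp ranged from 107 to 189 CPM in LFD and from 185 to 214 CPM in HFD (0.49 ± 0.25). It shares 748 exon bases with Pitrm1 on the opposite strand, and reads of the pair cannot be told apart without strand. Pfkm ranged from 22.1 to 50.5 and from 26.2 to 30.2 CPM (-0.39 ± 0.30). The subunits' shares of the family overlapped between the diets for all 3.

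Pfkfb3 and Pfkfb4 encode enzymes that make and break fructose 2,6-bisphosphate, the activator of phosphofructokinase. Pfkfb4 (chromosome 9, 108991778 to 109032228, plus strand) measured 5.42, 4.70, 11.95 and 5.44 CPM in LFD 1 to 4 and 23.8, 18.9 and 29.3 CPM in HFD 2 to 4. The groups did not overlap, and LFD 3 stood above the other LFD libraries. The log2 fold change was 1.80 ± 0.40 (edgeR adjusted p = 0.273, DESeq2 adjusted p = 0.00863). Pfkfb3 measured 35.7, 25.8, 22.9 and 18.8 CPM in LFD and 34.2, 38.7 and 18.3 CPM in HFD, and HFD 4 was the lowest library of all (0.24 ± 0.33, adjusted p = 0.877). Pfkfb4 made up 19.1% to 44.7% of this pair per length in LFD and 43.2% to 71.2% in HFD, with HFD 3 just inside the LFD range.

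**Figure D3:**
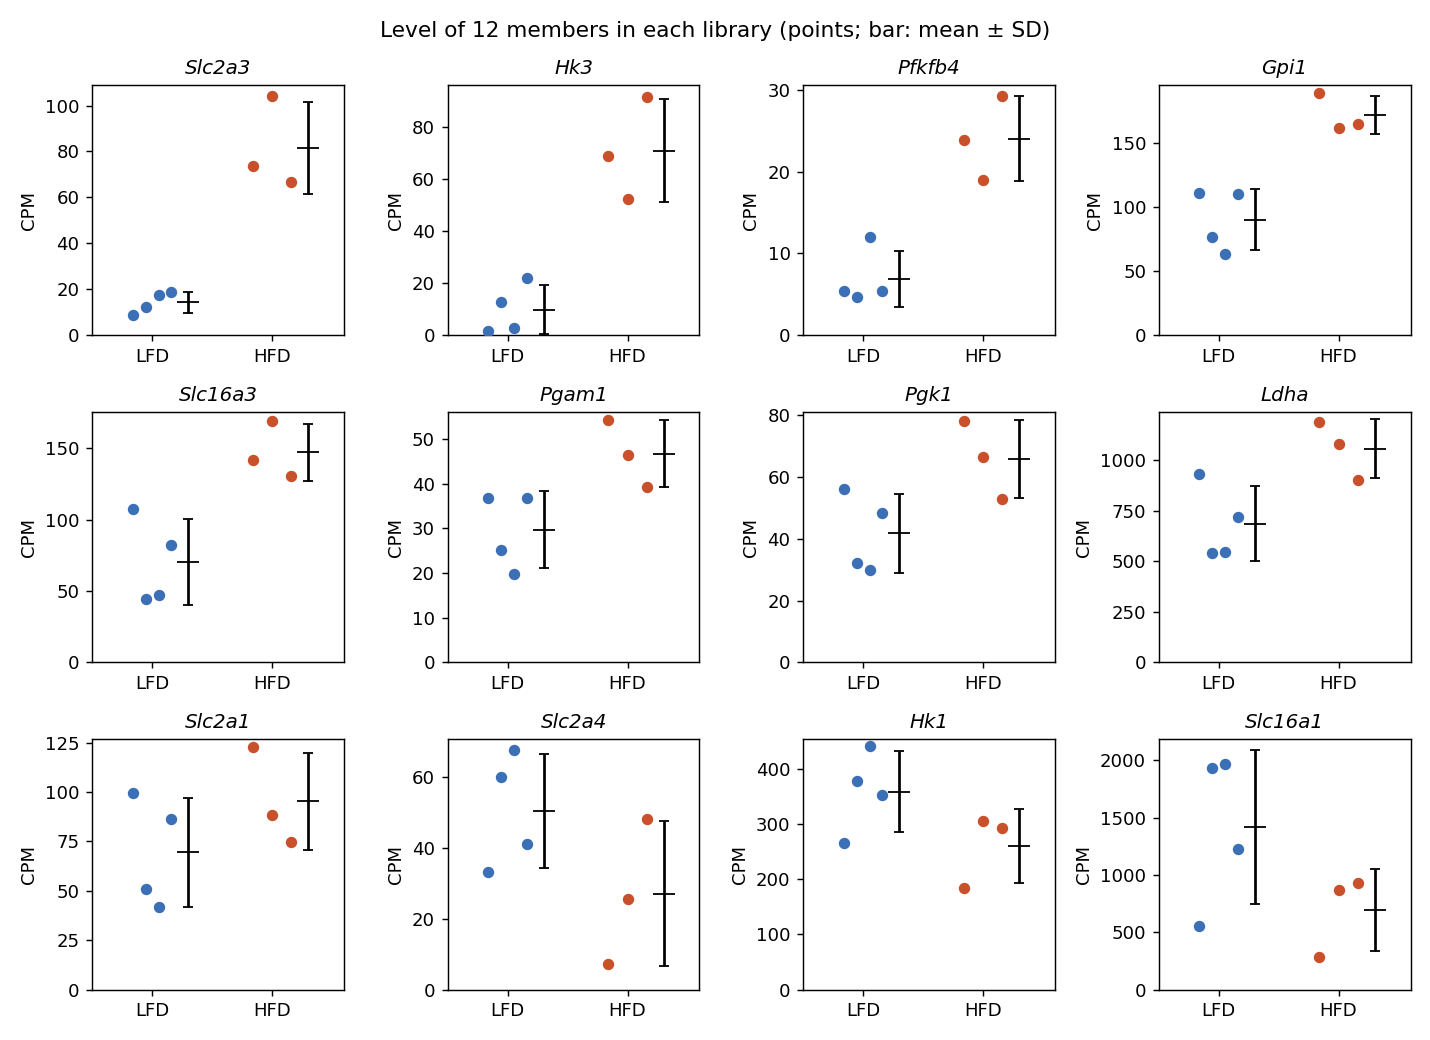
Level of 12 members in CPM (vertical axis, from 0) in each LFD (blue) and HFD (orange) library, with the group mean and SD beside the points. Slc2a3, Hk3, Pfkfb4, Gpi1, Slc16a3 and Pgam1 do not overlap between the diets, and the other 6 do.

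The enzymes of the lower part of the pathway overlapped between the diets, apart from Pgam1. Aldoa, the main aldolase, measured 587, 261, 269 and 378 CPM in LFD 1 to 4 and 550.0, 488 and 465 CPM in HFD 2 to 4. LFD 1 was the highest of the 7 libraries (0.42 ± 0.32, edgeR adjusted p = 0.743). Eno1, an enolase, was likewise highest in LFD 1, with 592, 302, 262 and 439 CPM in LFD and 531, 528 and 450.4 CPM in HFD (0.34 ± 0.32, adjusted p = 0.793). Pkm (pyruvate kinase) ranged from 414 to 917 CPM in LFD and from 775 to 907 CPM in HFD (0.44 ± 0.31), and Tpi1 (triose phosphate isomerase) from 198 to 382 and from 304 to 373 CPM (0.35 ± 0.27). The HFD values of Pkm and Tpi1 thus fell inside the LFD range. Gapdh, often used as a reference gene, ranged from 238 to 379 CPM in LFD and from 322 to 337 CPM in HFD (0.18 ± 0.23, adjusted p = 0.872). Its SD was 66.2 CPM in LFD and 7.62 CPM in HFD.

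Pgk1 and Pgam1 encode the kinase and mutase that act after Gapdh. Pgk1, which lies on the X chromosome, measured 56.2, 32.3, 30.1 and 48.4 CPM in LFD and 78.2, 66.6 and 52.8 CPM in HFD, and HFD 4 lay below LFD 1 (0.66 ± 0.28, edgeR adjusted p = 0.651). Pgam1 measured 36.8, 25.2, 19.7 and 36.9 CPM in LFD and 54.2, 46.4 and 39.2 CPM in HFD. HFD 4 cleared the highest LFD library by a small margin (0.65 ± 0.27, adjusted p = 0.651). Several members share sequence with other transcripts: 53.9% of the 50-base windows of Pgk1, 47.2% of Bnip3, 36.2% of Pgam1 and 26.0% of Eno1 also occur in other transcripts. The same holds for 25.8% of Pkm, 25.1% of Gapdh and 21.0% of Ldhb, with those of Gapdh in 223 other genes. For Ldha it is 9.26%, in 328 other genes. How such reads were counted is not given in the sources used here, and levels of these genes are uncertain. The minor isoenzymes stayed low, with Aldoc at 0 to 7.12 CPM and Eno2 at 2.38 to 8.72 CPM over all libraries.

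Ldha, the lactate dehydrogenase subunit that favours lactate, had the highest mean level of the members per kilobase of merged exons in HFD (319 ± 44.1 CPM per kb, against 207.0 ± 56.1 in LFD). It measured 935, 543, 545 and 718 CPM in LFD 1 to 4 and 1191, 1079 and 902 CPM in HFD 2 to 4. LFD 1 exceeded HFD 4, so the groups overlapped (0.63 ± 0.28, edgeR adjusted p = 0.679). Ldhb, the subunit that favours pyruvate, ranged from 14.3 to 35.3 CPM in LFD and from 16.7 to 29.1 CPM in HFD (-0.20 ± 0.35). Ldha made up 91.0% to 94.7% of the pair per length in LFD and 95.1% to 96.3% in HFD, ranges that did not overlap but lie close together.

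The 2 lactate carriers had fold changes of opposite sign. Slc16a1 encodes MCT1, which carries lactate in either direction (chromosome 3, 104638668 to 104658462, plus strand). Per kilobase of merged exons it had the highest mean of the members in LFD (321 ± 152 CPM per kb, against 157.0 ± 80.3 in HFD). Ldha was above it in LFD 1 (282 against 125 CPM per kb), and by the longest coding transcript also in the LFD mean (377 against 321 CPM per kb). Its level was 551, 1935, 1966 and 1226 CPM in LFD 1 to 4 and 286, 868 and 930.0 CPM in HFD 2 to 4. LFD 1 lay inside the HFD range, and the log2 fold change was -1.03 ± 0.56 (edgeR adjusted p = 0.693). Slc16a3 encodes MCT4, the carrier of strongly glycolytic cells (chromosome 11, 120948480 to 120960868, plus strand). It measured 108, 44.2, 47.4 and 82.1 CPM in LFD and 142, 169 and 131 CPM in HFD. No HFD library came down to LFD 1, the highest LFD library (1.06 ± 0.33, edgeR adjusted p = 0.457, DESeq2 adjusted p = 0.106). Slc16a3 nevertheless made up at most 29.2% of the pair per length, in HFD 2.

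The 5 hypoxia targets outside the pathway overlapped between the diets. None reached an unadjusted p under 0.05 by edgeR, which 7.53% of all genes did, so a list of 5 says little, and their median log2 fold change was 0.22. Vegfa, which encodes the growth factor of blood vessels, measured 84.4, 45.2, 28.9 and 33.7 CPM in LFD 1 to 4 and 53.4, 50.3 and 47.1 CPM in HFD 2 to 4. LFD 1 was the highest library, and the HFD values lay close together inside the LFD range (0.07 ± 0.37, edgeR adjusted p = 0.972). Bnip3, a mitophagy receptor, ranged from 22.0 to 58.3 CPM in LFD and from 42.0 to 55.7 CPM in HFD (0.43 ± 0.35). Ndrg1, a stress gene, ranged from 74.3 to 123 and from 64.7 to 119 CPM (-0.21 ± 0.28). Egln3, a prolyl hydroxylase that marks HIF subunits for destruction and is itself induced by HIF, ranged from 3.45 to 26.6 and from 10.0 to 21.6 CPM (0.23 ± 0.61), and Ankrd37 stayed at 0.908 to 2.61 CPM in all libraries. Pdk1, the kinase that HIF-1 induces to shut pyruvate dehydrogenase, ranged from 23.9 to 62.3 and from 31.0 to 60.3 CPM (0.23 ± 0.37).

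Hif1a itself measured 259, 139, 124 and 208 CPM in LFD 1 to 4 and 272, 284 and 174 CPM in HFD 2 to 4. HFD 4 lay below LFD 1 and LFD 4 (0.41 ± 0.32, edgeR adjusted p = 0.743). HIF-1 is regulated mainly through the stability of the protein, which transcript counts do not measure.

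The levels of 3 members, Slc2a4, Slc16a1 and Hk1, had a correlation of at least 0.8 with the erythroid share of the libraries (9.38% of members, and 11.2% of all genes, so this is not particular to the members). The erythroid share, in ascending order, was 2.69% in HFD 2, 7.68% in HFD 3, 10.4% in LFD 1, 10.8% in HFD 4, 11.6% in LFD 4, 13.3% in LFD 2 and 14.8% in LFD 3. Slc2a4, Hk1 and Slc16a1 were lowest in HFD 2 and highest in LFD 3. Across the 7 libraries, log2 CPM of Slc2a4 rose with the log2 erythroid share (Pearson r = 0.99, exact permutation p = 0.000595, adjusted p = 0.0411, Spearman rho = 0.96, p = 0.00278, adjusted p = 0.0538). For Hk1 r was 0.90 (exact permutation p = 0.00575, adjusted p = 0.0927, rho = 0.89, p = 0.0123, adjusted p = 0.0937), and for Slc16a1 r was 0.87 (exact permutation p = 0.00595, adjusted p = 0.0938, rho = 0.96, p = 0.00278, adjusted p = 0.0538). P-values were adjusted over the same relation in all 14304 genes, and Hk1 and Slc16a1 did not pass. Within the diets r was 0.98, 0.84 and 0.81 for these genes, and without HFD 2 and HFD 3, the libraries farthest from the median share, 0.90, 0.96 and 0.92.

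Most other members went the opposite way. The relation was negative for 27 of 32 members (84.4%, and 58.4% of all genes). Pfkl had r = -0.94 (exact permutation p = 0.000595, adjusted p = 0.0411, rho = -0.96, p = 0.00278, adjusted p = 0.0538, r = -0.91 within the diets and -0.86 without HFD 2 and HFD 3). Pgk1 had r = -0.81 (exact permutation p = 0.00556, adjusted p = 0.0923, rho = -1.0, p = 0.000397, adjusted p = 0.0427, r = -0.63 within the diets and -0.98 without the same libraries). All points share the library total, of which erythroid transcripts take a part. LFD 1, with the smallest erythroid share of its group, was the highest LFD library for 21 of 32 members (65.6%, and 33.2% of all genes). In bulk samples, fewer cells of a type and less RNA per cell cannot be told apart. With that share as a covariate, the log2 fold changes of Slc16a1, Hk1 and Slc2a4 were -0.04, -0.03 and 0.20. Those of Ldha, Pgk1 and Pgam1 were 0.35, 0.29 and 0.33. For Slc2a3, Hk3 and Pfkfb4 they were 2.63 ± 0.41, 2.93 ± 1.01 and 2.02 ± 0.53 (SE). No member passed in this fit (edgeR adjusted p = 0.717 for Slc2a3 and 0.987 for Pfkfb4).

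**Figure D4:**
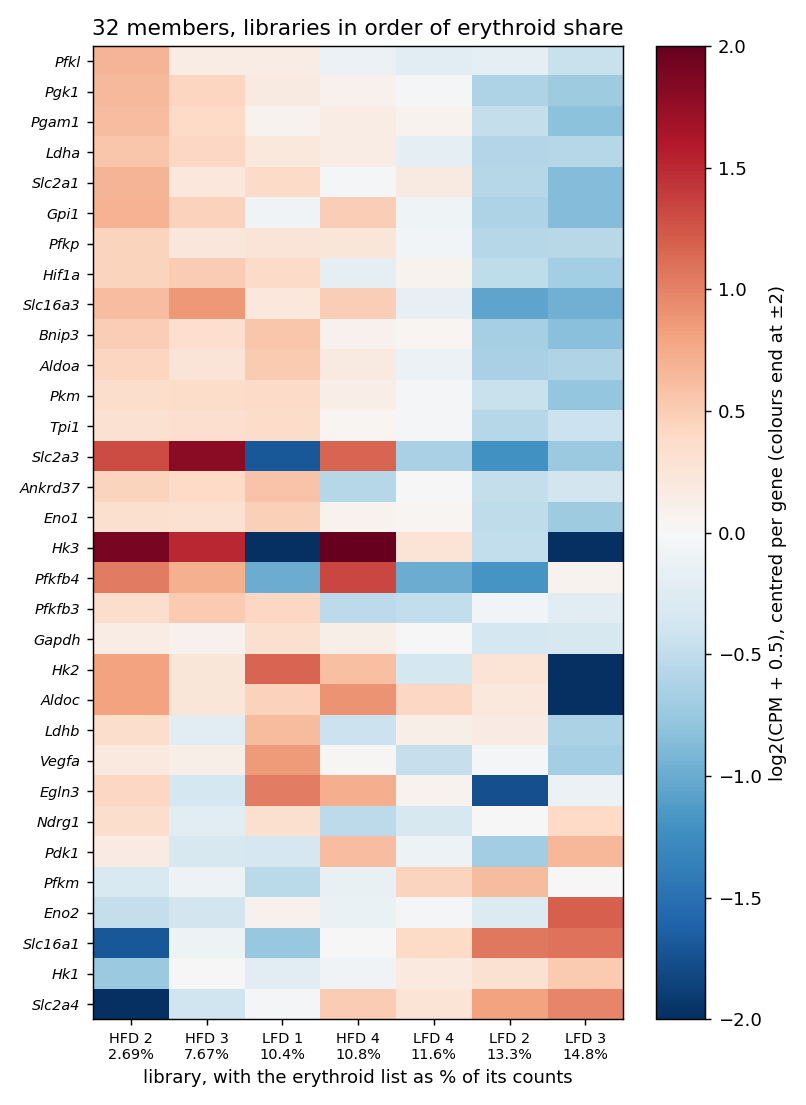
Log2(CPM + 0.5) of the 32 members, centred on each gene's mean, with libraries in ascending order of erythroid share (horizontal axis) and genes in order of their correlation with it. Most members turn from red (above the mean) at the left, in HFD 2 at 2.69%, to blue at the right, in LFD 3 at 14.8%, and Slc16a1, Hk1 and Slc2a4 turn the other way.

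Beside the higher HFD values of Slc2a3, Hk3 and Pfkfb4, the granulocyte list was also higher in every HFD library. That list held 15 genes, all with higher values in HFD, and its share was 0.102%, 0.163%, 0.203% and 0.543% in LFD 1 to 4 and 1.04%, 1.28% and 1.64% in HFD 2 to 4. The diets did not overlap in this share, so no correlation over the 7 libraries is given. Within LFD, Hk3 was highest and lowest in the libraries with the largest and the smallest granulocyte share (LFD 4 and LFD 1), but LFD 2 had more Hk3 than LFD 3 at a smaller share. Slc2a3 rose in the order of that share within LFD (8.74, 12.5, 17.4 and 18.7 CPM in LFD 1 to 4). In HFD it did not, with 73.8, 104 and 66.8 CPM in HFD 2 to 4. Pfkfb4 was highest within LFD in LFD 3 (11.95 CPM) and not in LFD 4 (5.44 CPM). With the granulocyte share in the model the log2 fold change was 0.22 ± 1.34 for Hk3, 1.56 ± 0.63 for Slc2a3, 1.66 ± 1.07 for Pfkfb4, 0.85 ± 0.55 for Gpi1 and 1.25 ± 0.74 for Slc16a3 (edgeR adjusted p from 0.995 to 0.998). Diet and this share move together, which widens these errors. The monocyte, stromal progenitor and skeletal muscle lists, whose ranges are given above, also did not overlap between the diets. Nor did the B lineage list (0.00116% to 0.00507% in LFD, 0.0057% to 0.0132% in HFD). The endothelial list was apart downward (0.000897% to 0.0023% in LFD, 0.000458% to 0.000685% in HFD). The part of these 5 lists in the results was not tested.

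**Figure D5:**
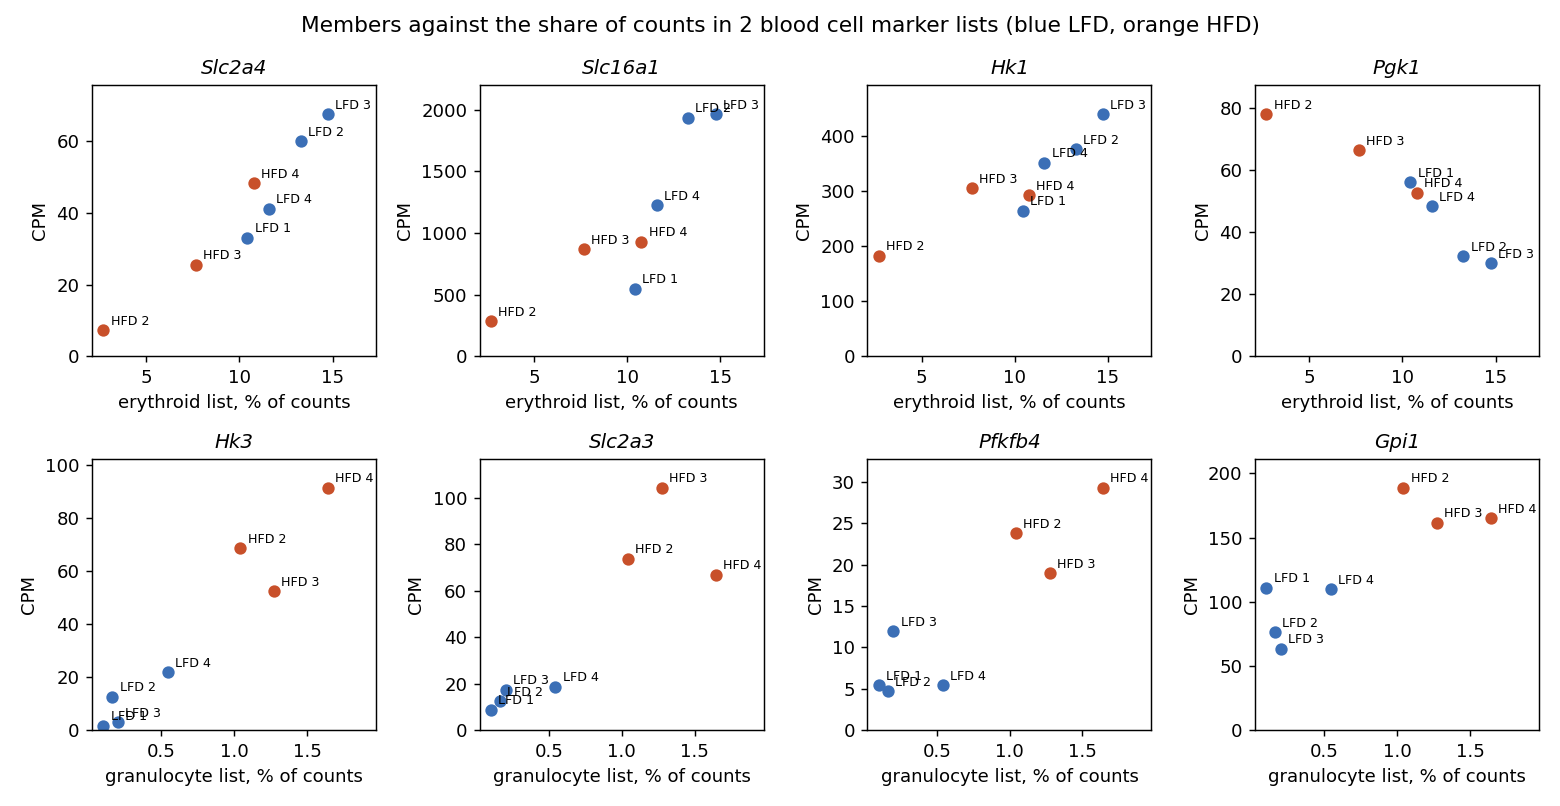
Level of 8 members in CPM (vertical axes, from 0) against the percentage of counts that the erythroid (upper row) or granulocyte (lower row) list takes, with each point a library. Slc2a4 and Slc16a1 climb and Pgk1 descends with the erythroid share in both diets, and Hk1 climbs except from HFD 3 (306) to HFD 4 (293), while in the lower row the HFD libraries, at 1.04% to 1.64%, lie apart from the LFD libraries on both axes.

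Neighbouring pathways were read from 7 lists, also chosen with earlier results of these data known. Of 104 listed genes 96 were tested, none passed edgeR's adjusted threshold, 13 reached an unadjusted p under 0.05 upward and 0 downward, where 5.18% of all genes reached it upward and 2.35% downward. DESeq2 called 5 of these genes, all higher in HFD (1.66% of all genes): Pygl, Adpgk, Slc16a7, G6pdx and Tbc1d1. Glycogen and gluconeogenesis genes had higher values for 12 of 14 tested (median log2 fold change 0.72), with 1 (7.14%) at an unadjusted p under 0.05. Pygl, the glycogen phosphorylase of liver and white blood cells, measured 42.9, 39.7, 32.1 and 60.4 CPM in LFD and 126, 119 and 122 CPM in HFD (1.48 ± 0.23, edgeR adjusted p = 0.163, DESeq2 adjusted p = 4.46e-06). Ugp2 and Gys1, which build glycogen, had 0.55 ± 0.26 and 0.96 ± 0.48. All 3 had HFD libraries above every LFD library. They are among 6 of the 14 tested genes of this list that were apart upward (42.9%, and 8.4% of all genes).

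Of the pentose phosphate genes 4 of 8 were higher (median 0.10), 2 of them (25%) at an unadjusted p under 0.05. These were the oxidative enzymes G6pdx (X-linked, 64.1 ± 7.46 and 103 ± 14.2 CPM, log2 fold change 0.68 ± 0.19) and Pgd (45.3 ± 18.1 and 87.9 ± 4.37 CPM, 0.95 ± 0.32). Pgls, which acts between them, had 0.54 ± 0.28. EdgeR adjusted p-values were 0.352 for G6pdx, 0.529 for Pgd and 0.693 for Pgls, and DESeq2's was 0.0468 for G6pdx.

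Among the other isoenzymes and sugar carriers 10 of 16 tested were higher (median 0.06), 2 (12.5%) at an unadjusted p under 0.05. Adpgk, a kinase that uses ADP to phosphorylate glucose, measured 36.6, 36.3, 39.5 and 63.4 CPM in LFD and 96.2, 125 and 152 CPM in HFD (1.5 ± 0.27, edgeR adjusted p = 0.217, DESeq2 adjusted p = 0.000131). Slc16a7, a carrier of pyruvate and lactate, had 0 counts in LFD and 137 in HFD, where it measured 1.47 to 2.66 CPM (edgeR adjusted p = 0.258, DESeq2 adjusted p = 0.0014). The HFD level was at least 50.6-fold higher when 3 counts over the LFD group are taken as the floor. Reads carry no molecular identifiers, so this bound covers counting error only, and the granulocyte gene Mpo ranged from 1 to 3701 counts among the LFD libraries. Slc2a6 ranged from 0 to 1.68 CPM in LFD and from 3.72 to 11.3 CPM in HFD. Bpgm, which makes the 2,3-bisphosphoglycerate of red cells, is named for its level and was chosen after its values were seen. It ranged from 2119 to 3567 CPM in LFD and from 577 to 2352 CPM in HFD and rose with the erythroid share (r = 0.99, exact permutation p = 0.000198, adjusted p = 0.0302, rho = 1.0, p = 0.000397, adjusted p = 0.0427, r = 0.98 within the diets and 0.99 without HFD 2 and HFD 3).

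Genes for the entry of pyruvate into mitochondria had higher values for 4 of 13 (median -0.18), with 0 at an unadjusted p under 0.05 in either direction. Pcx (pyruvate carboxylase) measured 178 ± 79.5 and 77.2 ± 46.9 CPM (-1.20 ± 0.53). Its level rose with the erythroid share (r = 0.93, exact permutation p = 0.000198, adjusted p = 0.0302, rho = 1.0, p = 0.000397, adjusted p = 0.0427, r = 0.87 within the diets and 0.92 without HFD 2 and HFD 3). Pdhb, a subunit of pyruvate dehydrogenase, measured 76.1 ± 4.45 and 58.9 ± 8.30 CPM (-0.37 ± 0.18), and Pdk4 25.8 ± 11.9 and 38.2 ± 8.99 CPM (0.57 ± 0.36). Of 8 oxygen sensing genes 4 were higher (median 0.01). Cited2, which limits HIF-1 by competing for its coactivator, had 0.63 ± 0.26 at an unadjusted p of 0.0451 by edgeR, Arnt, which encodes the constant subunit of HIF-1, -0.47 ± 0.23, and Epas1, which encodes HIF-2 alpha, 0.66 ± 0.33.

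Of 26 further hypoxia targets 21 were higher (median 0.43), 5 of them (19.2%) at an unadjusted p under 0.05, all upward. Groups were apart upward for 6 (23.1%) and downward for 1, where 8.4% of all genes were apart upward and 3.47% downward. Car12, a carbonic anhydrase, had 0.72 ± 0.23, Angptl4, also a target of PPAR receptors, 1.93 ± 0.62, and P4ha2, which hydroxylates collagen, 0.65 ± 0.23, with edgeR adjusted p from 0.479 to 0.541. Bnip3l, a mitophagy receptor of maturing red cells and chosen here after its values were seen, measured 768 ± 192 and 407 ± 209 CPM and rose with the erythroid share (r = 0.98, exact permutation p = 0.000198, adjusted p = 0.0302, rho = 1.0, p = 0.000397, adjusted p = 0.0427, r = 0.96 within the diets and 0.99 without HFD 2 and HFD 3). Of 11 insulin and glucose sensing genes 7 were higher (median 0.30), 2 (18.2%) at an unadjusted p under 0.05. Tbc1d1, a brake on GLUT4 traffic, measured 15.8 ± 1.32 and 31.3 ± 9.34 CPM (0.98 ± 0.26, edgeR adjusted p = 0.326, DESeq2 adjusted p = 0.0476). Arrdc4, which is induced by glucose and lowers its uptake, measured 13.5 ± 12 and 51.2 ± 6.55 CPM (1.93 ± 0.69), and Irs1 had 0.67 ± 0.42.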

How the data were processed

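RNA from sorted cells was made into libraries with SMART-Seq v4 and Nextera XT, per the labels. Per the submitters' processing notes, the tools included HTSeq 0.11.2, the aligner STAR 2.5.2b, cutadapt and bcl2fastq 2.20, with the build mm10. The deposited values are raw counts per Ensembl gene, used as deposited. How strand and multiply mapped reads were treated is not given in the sources used. Symbols and positions came from GENCODE on mm10.

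The main test was edgeR 4.0.16 (R 4.3.3): TMM scaling, filterByExpr, robust quasi-likelihood fit on diet, Benjamini-Hochberg adjustment over 14304 genes, threshold 0.05. DESeq2 1.42.0, limma 3.58.1 and sva 3.50.0 gave alternatives. Only the main edgeR fit was also run on simulated counts. DESeq2 left 349 adjusted p-values as NA. CPM, shares per merged exon length and marker shares were computed from the counts. No 2 libraries agreed within sampling noise.

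Values in every library are given for members with an unadjusted p under 0.05 or groups apart, the highest member per length of each family, Slc2a1, Slc2a4, Vegfa and Hif1a, and of each further list the 3 smallest p-values are named. Members and lists were chosen with earlier results of these data known. At 17391613 to 24681838 counts per library, spread between libraries (common biological coefficient of variation 0.628) limits precision more than counting for abundant members.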

Additional observations from a re-analysis of the deposited data

Results flagged for a closer look

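Each of the 32 members was searched for a library far from the rest of its group, in LFD alone because 3 HFD libraries are too few. LFD 3 stood far above the other LFD libraries for Pfkfb4 (11.95 CPM) and for Eno2 (8.72 CPM). Chance flags about 1 in 20 groups.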

How the results depend on the processing

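The main test called 5 genes in all and 0 members. Counts of genes called were 8 with no filter beyond 1 count, 0 with a stricter filter, 291 with DESeq2, 26 with limma-voom, 2 with 1 surrogate variable, 1 with the erythroid share in the model, 0 with the granulocyte share, 10 at an adjusted p of 0.1, and 1 to 6 when a library was left out. Members called were 1 with no filter, 4 with DESeq2, 1 with limma-voom and 1 at an adjusted p of 0.1. Of 32 members, 25 were higher, 15 with 1 surrogate variable, 21 with the erythroid share and 23 to 26 without a library. The median log2 fold change of 0.42 was -0.02 with 1 surrogate variable, 0.10 with the erythroid share, 0.68 with the granulocyte share and 0.27 to 0.66 without a library. The cause was not tested. Replicate numbers did not pair libraries (correlations of same-numbered libraries -0.03, 0.03 and -0.13). With the replicate block, over libraries 2 to 4, 0 genes were called and the median was 0.67.

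Of 576 member values over 18 settings, 544 kept direction and side of the threshold, 6 became called and 26 reversed, and 17 members never reversed. Reversed with 1 surrogate variable were Slc2a1 (-0.11), Hk2 (-0.18), Pfkfb3 (-0.06), Gapdh (-0.06), Eno1 (-0.06), Vegfa (-0.34), Bnip3 (-0.06), Ankrd37 (-0.41), Egln3 (-0.14) and Hif1a (-0.03). With the erythroid share they were Slc2a1 (-0.05), Slc2a4 (0.20), Pfkl (-0.03), Pfkfb3 (-0.11), Vegfa (-0.17) and Ankrd37 (-0.45), and with the granulocyte share Ldhb (0.42), Pdk1 (-0.26) and Ndrg1 (0.65). Ldhb was 0.03 with the replicate block. Leaving out a library reversed Ldhb (0.03 without LFD 1, range -0.47 to 0.03), Egln3 (-0.09 without LFD 2, -0.02 without HFD 4, range -0.09 to 0.77), Vegfa (-0.11 without LFD 3, -0.07 without LFD 4, range -0.11 to 0.49) and Pdk1 (-0.03 without HFD 4, range -0.03 to 0.57).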
